A study of Mus musculus with 9 samples.

Results

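Tubb4b, Cfl1, Tagln2 and Anxa2 are 4 genes of the cytoskeleton and the cell cortex, and every cDNA clone whose listed symbol, older synonyms counted, was one of them was taken. This gave 6 of the 15294 clones on the arrays, for 4 of the 7612 genes named there. Tubb4b had 3 clones (H3024C12, H3024D01 and H3024D02, listed under the older symbol 4930542G03Rik), Cfl1 had 1 (H3124B04), Tagln2 had 1 (H3017H12) and Anxa2 had 1 (H3126C03). The 4 genes were chosen by their measured log2 ratios in G0 MB over MB and in MT over MB, so their values in those comparisons are a description and carry no test. On each of the 9 spotted arrays the RNA of 2 cell states was labelled with Cy3 or Cy5 and hybridized together: G0 MB over MB on 3 arrays, and G0 MB over G0 FB, G0 MB over MT and MT over MB on 2 arrays each. G0 MB were C2C12 myoblasts, a mouse muscle precursor line used as a single sub-clone, arrested for 48 h in suspension in semi-solid medium that kept its serum. MT were C2C12 cells differentiated into myotubes in low serum, MB were C2C12 cells proliferating in growth medium, and G0 FB were suspension-arrested fibroblast-like cells, NIH 3T3 by the labels and C3H10T1/2 by the methods. The methods state a biological replicate for each sample pair, but which arrays came from separate cultures is not given in the labels, so that p-values measure only the spread between arrays. On 1 of the arrays with G0 FB the source of the G0 MB begins with NIH 3T3 although its cell line field names C2C12.

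Microtubules are polymers of alpha- and beta-tubulin, and Tubb4b is a beta-tubulin made in many tissues. Actin filaments are kept in turnover by cofilin, which severs them and frees monomers from their ends, and Cfl1 is the non-muscle form of it. Tagln2 encodes transgelin 2, a small actin-binding protein of the calponin family. Anxa2 encodes annexin A2, which binds membrane phospholipids in the presence of calcium and works in a complex with S100a10 at the cell cortex. Adherent myoblasts carry stress fibres and spread microtubule arrays, cells in suspension are round, and myotubes are elongated syncytia in which sarcomeric actin takes over from the non-muscle isoforms.

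The genes lie on separate chromosomes of GRCm38.p6, Tubb4b at chr2:25222158-25224702 on the minus strand, Cfl1 at chr19:5490455-5494031, Tagln2 at chr1:172500246-172507375 and Anxa2 at chr9:69453683-69491792, each on the plus strand. Since all 4 stood lower in G0 MB than in MB, the 250 bases before each start are shown from RefSeq, as coordinates chr2:25224703-25224952, chr19:5490205-5490454, chr1:172499996-172500245 and chr9:69453433-69453682, written 5′ to 3′ along the gene. Capitals mark matches, on either strand, to the CArG box (the site of serum response factor), GGGCGG (the GC box), GGAATG (the MCAT site), TGANTCA (the AP-1 site) and GCCAAT (the CCAAT box with a G before it), while matches to CANNTG (the E-box) were counted and left in lower case.
Tubb4b: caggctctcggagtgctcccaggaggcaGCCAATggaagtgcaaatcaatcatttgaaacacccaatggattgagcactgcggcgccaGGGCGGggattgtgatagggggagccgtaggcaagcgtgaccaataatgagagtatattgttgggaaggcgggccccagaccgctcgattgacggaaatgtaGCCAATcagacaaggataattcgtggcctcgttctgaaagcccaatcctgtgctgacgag
Cfl1: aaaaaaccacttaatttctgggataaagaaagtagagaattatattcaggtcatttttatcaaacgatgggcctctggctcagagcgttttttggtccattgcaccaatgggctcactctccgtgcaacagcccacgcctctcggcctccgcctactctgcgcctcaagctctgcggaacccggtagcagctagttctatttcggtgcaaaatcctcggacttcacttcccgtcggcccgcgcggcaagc
Tagln2: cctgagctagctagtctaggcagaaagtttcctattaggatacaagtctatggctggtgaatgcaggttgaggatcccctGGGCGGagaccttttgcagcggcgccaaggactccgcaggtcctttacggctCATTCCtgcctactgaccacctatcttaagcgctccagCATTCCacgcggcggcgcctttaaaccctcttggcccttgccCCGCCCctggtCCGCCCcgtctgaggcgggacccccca
Anxa2: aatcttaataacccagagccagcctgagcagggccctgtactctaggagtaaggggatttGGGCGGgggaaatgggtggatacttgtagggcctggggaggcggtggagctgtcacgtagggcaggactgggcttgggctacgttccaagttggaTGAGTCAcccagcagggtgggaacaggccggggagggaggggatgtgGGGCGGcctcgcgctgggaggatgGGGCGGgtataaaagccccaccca

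The stretches shared no motif among all 4 genes. The Tubb4b stretch held GCCAAT at 222 and 60 bases before the start, GGGCGG at 162 and CANNTG at 200. The Tagln2 stretch held GGGCGG at 170, 38 and 27 bases and GGAATG at 118 and 80, and the Anxa2 stretch held GGGCGG at 190, 48 and 24 bases and TGANTCA at 95. The Cfl1 stretch held no match to any of the 6 motifs, the CArG box matched in none of the 4, and no match overlapped another. CCAAT without the G before it, which occurs in the Tubb4b and Cfl1 stretches, was not searched for. Of 32841 mouse promoter stretches of the same length, 32.7% held GGGCGG, 13.5% GCCAAT, 12.6% GGAATG, 6.75% TGANTCA, 66.2% CANNTG and 1.47% the CArG box.

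Of the 31200 spots on an array, 36.4% to 61.1% of those that held a clone lay above the detection limit in at least 1 channel, and the log2 ratios of duplicate spots correlated at r between 0.85 and 0.935. Replicates 1 and 2 of G0 MB over MB correlated at r = 0.68 over clones, and replicate 3, the only array of that comparison on the second slide layout, at 0.202 and 0.204 with them. In G0 MB over MB the log2 values deposited with replicates 2 and 3 follow the labelled direction, and those with replicate 1 do not. The labelled dyes and the authors' value table give the same signs on all 3 of these arrays, and that direction is used here. On replicate 1 of MT over MB and on all 4 arrays that set G0 MB against MT or G0 FB they give opposite signs, so values are given by the labelled dyes and then in title order, with the signs of those 5 arrays turned. Read by their labelled dyes, both MT over MB arrays correlated with each other at r = -0.486, so the labels alone do not settle their direction. The labels give MT as Cy5 on both, while the methods state a dye reversal for each sample pair. The muscle markers Mylpf and Tpm2, the only 2 of 22 that could be tested, had log2 ratios of -4.68 and 12.7 (Mylpf) and -3.42 and 2.0 (Tpm2) over these arrays by the labelled dyes, and in title order both were above 0 on both arrays, with Tpm2 called higher in MT (mean 2.71, limma adjusted p = 0.0279). Of 8 myoblast markers none had a clone under its symbol. Of 14 proliferation markers tested, 11 were past 1.6-fold lower in G0 MB than in MB by their means and 0 past it higher (median log2 ratio -2.33), and in limma 0 of the 14 met the call rule by the labelled dyes (8 lower at an unadjusted p under 0.05) and 3 in title order. Of all 3780 genes tested, 26.6% were past 1.6-fold lower and 17.4% higher. In limma 2 of them were called lower by the labelled dyes (473 lower at an unadjusted p under 0.05) and 49 in title order. The part of the proliferation markers in the values below was not tested.

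Tubb4b stood far lower in G0 MB than in MB on every array. Clone H3024D02 had log2 ratios of -4.69, -3.09 and -1.82 on replicates 1, 2 and 3, with a mean of -3.2 ± 1.44 (SD, n = 3), 9.19-fold lower in G0 MB. Clone H3024D01 had -3.96, -2.49 and -2.7, with a mean of -3.05 ± 0.794 (SD, n = 3), and clone H3024C12 had -3.69, -2.8 and -2.18, with a mean of -2.89 ± 0.758 (SD, n = 3). All 9 values lay below 0, with the dyes one way round on replicates 1 and 3 and reversed on replicate 2, and replicate 1 was the lowest for each clone. On replicate 2, where both channels of each clone lay above their limits, H3024D02, H3024C12 and H3024D01 ranked 87, 127 and 188 from the lowest of 9872 clones measured. The clones come from neighbouring wells of the library and share 1 target, so they are repeated readings of 1 gene: within an array they lay 0.605 to 1.0 apart on the log2 scale in this comparison, less than the arrays lay apart for any of them.

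The weaker channel limits how large the decrease can be said to be. On replicate 1 the normalized intensity of H3024D02 was 5605 in G0 MB and 143684 in MB, against a detection limit of 6877 in the G0 MB channel, which makes it at least 20.9-fold lower in G0 MB there. For H3024C12 the G0 MB intensities were 4564, 13346 and 2975, against MB intensities of 58581, 92819 and 13457, and those of replicates 1 and 3 lay under the limit, so the gene was at least 8.52-fold and at least 2.42-fold lower on these arrays. For H3024D01 only the G0 MB channel of replicate 3 lay under its limit, which gives at least 4.07-fold there. The MB channel lay above the limit for each of the 3 clones on each array. In bulk RNA, fewer cells that make a transcript and less of it per cell cannot be told apart.

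**Figure D1:**
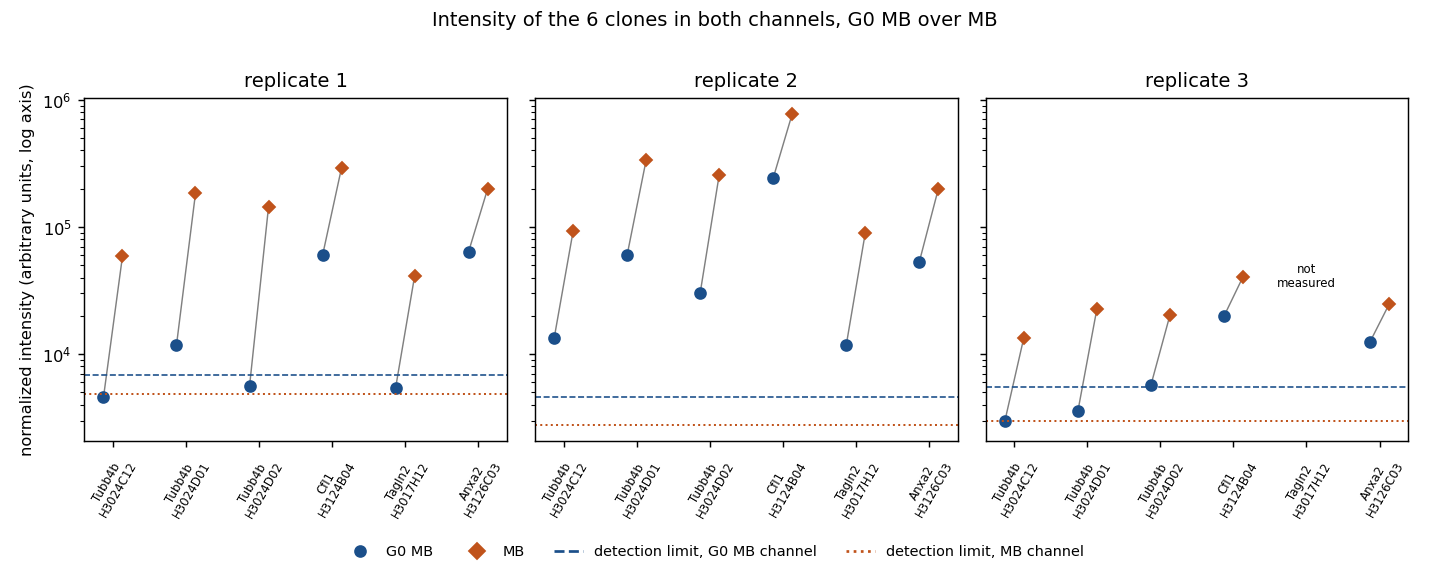
Normalized intensity (arbitrary units, log axis) of the 6 clones in G0 MB (circles) and MB (diamonds) on the 3 arrays that compare them, with the detection limit of each channel as a horizontal line. Each circle lies below its diamond, 5 of the 17 circles lie under the G0 MB limit, and Tagln2 was not measured on replicate 3.

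Cfl1, Tagln2 and Anxa2 stood lower in G0 MB on every array that measured them. Cfl1 had log2 ratios of -2.29, -1.67 and -1.03, with a mean of -1.66 ± 0.63 (SD, n = 3), 3.17-fold lower in G0 MB, from intensities of 59956, 243510 and 19850 in G0 MB and 292224, 776452 and 40462 in MB. Anxa2 had -1.64, -1.91 and -0.98, with a mean of -1.51 ± 0.479 (SD, n = 3), 2.85-fold lower, from 64123, 53249 and 12493 in G0 MB and 199300, 199254 and 24605 in MB. Both clones lay well above the limit in both channels, and for both replicate 3 gave the smallest decrease. Tagln2 had -2.92 and -2.92 on replicates 1 and 2, a 7.56-fold decrease, and had no value on replicate 3, where both of its spots were listed at 0 in both channels. Its G0 MB intensity on replicate 1, 5440 against 41039 in MB, lay under the limit of 6877, so that it was at least 5.97-fold lower there, while on replicate 2 both channels, 11860 in G0 MB and 89882 in MB, lay above it.

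All 6 clones were below 0 on each array of G0 MB over MB, where 27.9% of the 6903 clones tested were so, and all 6 means were past 1.6-fold (log2 0.67) lower, where 25.8% of clones were. The call rule, an adjusted p under 0.04 in limma with a mean past 1.6-fold, was met in the lower direction by 8 clones by the labelled dyes (0.116% of those tested) and by 100 in title order (1.45%). Of the 6 clones, H3024D01 and H3024D02 met it by the labelled dyes, and H3024C12, Cfl1 and Tagln2 met it as well in title order, where the ratios of this comparison are identical and only the shared estimate of the spread differs. The standard error of Cfl1 was 0.641 by the labelled dyes and 0.336 in title order, and that of Anxa2 was 0.839 and 0.355. Nothing is read from these calls, because this comparison was used to take up the genes.

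**Figure D2:**
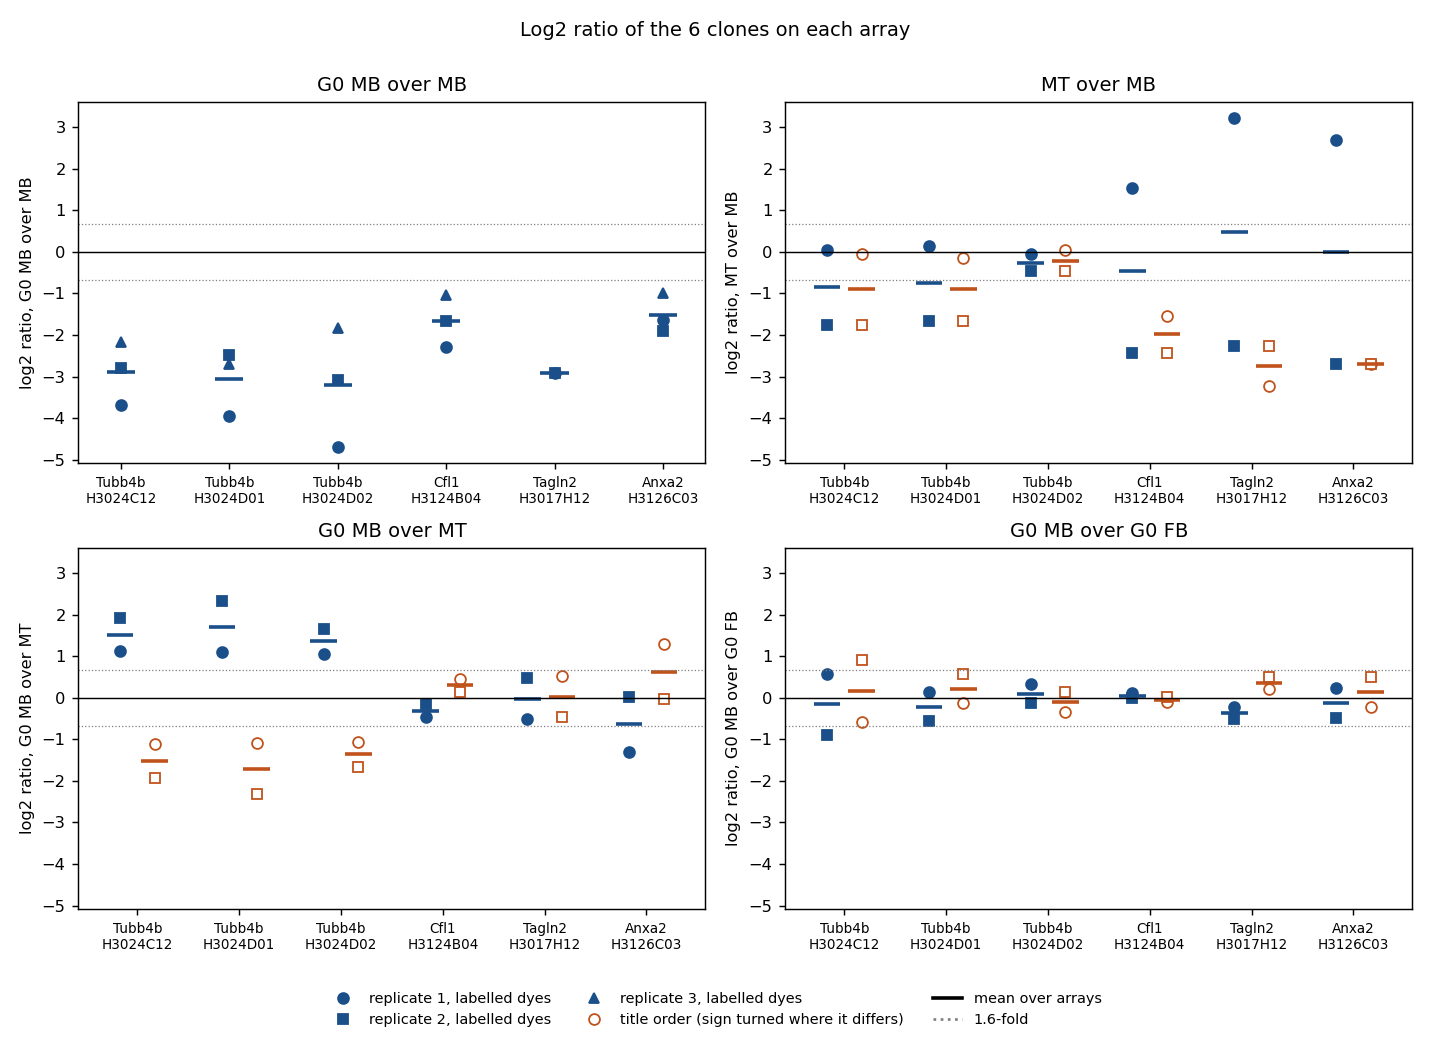
Log2 ratio of the 6 clones on each array of the 4 comparisons, with symbols for replicates, short bars for means and dotted lines at 1.6-fold. Filled blue symbols follow the labelled dyes and open orange ones title order: all values of G0 MB over MB lie below 0, Cfl1, Tagln2 and Anxa2 lie on opposite sides of 0 on the arrays of MT over MB by the labelled dyes and below it in title order, and the 3 Tubb4b clones lie on 1 side of 0 in G0 MB over MT under either reading.

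In MT over MB, Cfl1, Tagln2 and Anxa2 differed strongly between the states on both arrays, and in opposite directions by the labelled dyes. Anxa2 had log2 ratios of 2.7 and -2.7 on replicates 1 and 2, Tagln2 had 3.22 and -2.27, and Cfl1 had 1.53 and -2.43. With the sign of replicate 1 turned, as in title order, each was lower in MT on both arrays, with means of -2.7 ± 0.00531 for Anxa2, -2.75 ± 0.667 for Tagln2 and -1.98 ± 0.635 for Cfl1 (SD, n = 2 each). Those means are 6.5-fold, 6.7-fold and 3.95-fold lower in MT, and with replicate 2 turned instead they would be as far higher, and Mylpf and Tpm2 as far lower in MT as they are higher in title order. On replicate 1 the Anxa2 intensities were 125080 in the channel labelled MT and 19409 in the one labelled MB, and on replicate 2 they were 12412 in MT and 80665 in MB. The duplicate spots of Tagln2 on replicate 1 lay 2.08 apart on the log2 scale, with the channel labelled MB above its limit in 1 of the 2 spots, which makes that ratio less certain than the others.

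Tubb4b behaved unlike the other 3 genes in MT over MB. Clones H3024C12, H3024D01 and H3024D02 had log2 ratios of 0.05, 0.15 and -0.05 on replicate 1, so that a turned sign hardly mattered there, and -1.75, -1.66 and -0.46 on replicate 2. Their means were -0.85, -0.76 and -0.26 by the labelled dyes and -0.9, -0.9 and -0.21 in title order. On replicate 2 the clones lay 1.29 apart, the widest spread of the 3 clones on any array. In title order 34.7% of the 5373 clones tested were below 0 on both arrays, and 15.2% had a mean past 1.6-fold lower. Tagln2 and Anxa2 met the call rule in title order, where 17 clones (0.316%) were called lower, and none of the 6 met it by the labelled dyes, where no clone was called in either direction (0% of those tested, with 34 clones higher and 36 lower at an unadjusted p under 0.05). Nothing is read from these calls either, since this comparison too was used to choose the genes.

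The direct comparison of the arrested states, G0 MB over MT, was not used to take up the genes and is tested. Tubb4b lay past 1.6-fold from 0 in each of its 3 clones and none of them passed the test. Clone H3024C12 had log2 ratios of 1.12 and 1.93 by the labelled dyes, with a fitted mean of 1.52 ± 0.59 (standard error, limma adjusted p = 0.56) and a 95% interval of 0.17 to 2.88. Clone H3024D01 had 1.09 and 2.32, with a mean of 1.71 ± 0.58 (standard error, limma adjusted p = 0.474), and its duplicate spots on replicate 1 lay 2.15 apart. Clone H3024D02 had 1.07 and 1.66, with a mean of 1.36 ± 0.61 (standard error, limma adjusted p = 0.635). Over all clones the 2 arrays of this comparison correlated at only r = 0.0204. The readings of the 3 clones, which share 1 target, lay 0.055 apart on replicate 1 and 0.66 apart on replicate 2. By the labelled dyes all were on the side of more transcript in G0 MB. In title order the same values have the other sign, with means of -1.52, -1.71 and -1.36 and limma adjusted p = 0.36, 0.27 and 0.463. The Tubb4b values of these 2 arrays therefore do not settle by themselves which state had more Tubb4b. Set beside them as a description, from the comparisons that chose the genes and share these states, the 3 clones had means of -2.89, -3.05 and -3.2 in G0 MB over MB. In MT over MB they had -0.85, -0.76 and -0.26 by the labelled dyes, -0.9, -0.9 and -0.21 in title order, and 0.9, 0.9 and 0.21 with replicate 2 turned in place of replicate 1. Against MB, then, the 3 clones lay lower in G0 MB than in MT under each of these readings. Tubb4b was chosen by its values in these comparisons, so this order is no support for either sign of the direct arrays. On the direct arrays the muscle markers Mylpf and Tpm2 had mean ratios of 3.61 and 2.0 by the labelled dyes, that is more of both in G0 MB than in MT. Their lowest and highest values were 3.02 and 4.2 (Mylpf) and 1.78 and 2.23 (Tpm2). In title order the sign is turned, with more of both in MT. Title order is thus the reading in which these markers of muscle differentiation stand higher in the differentiated cells. By the labelled dyes 21.7% of the 5134 clones tested were above 0 on both arrays and 15.1% had a mean past 1.6-fold higher, and the counts called were 0 higher (0%) and 2 lower (0.039%), with 213 higher and 195 lower at an unadjusted p under 0.05. In title order 13 clones were called higher (0.253%) and 6 lower (0.117%).

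Cfl1, Tagln2 and Anxa2 showed no difference between G0 MB and MT that passed the test, though the intervals are wide. The intervals rest on the spread over the arrays of all 4 comparisons, which by the labelled dyes takes in the opposite signs of MT over MB. For Cfl1 the SD over the 2 arrays of G0 MB over MT was 0.22, and the standard error was 0.785 by the labelled dyes and 0.412 in title order. Cfl1 had log2 ratios of -0.46 and -0.15 by the labelled dyes, with a fitted mean of -0.31 and a 95% interval of -2.1 to 1.49 (limma adjusted p = 0.998). In title order the mean was 0.31, with an interval of -0.63 to 1.24 (limma adjusted p = 0.945). Tagln2 had -0.51 and 0.47, on opposite sides of 0, with a mean of -0.02 and an interval of -2.53 to 2.48 (limma adjusted p = 0.999). In title order its interval was -0.94 to 0.99 (limma adjusted p = 0.996). Anxa2 had -1.29 and 0.03, with a mean of -0.63 and an interval of -2.98 to 1.71 (limma adjusted p = 0.998), and in title order a mean of 0.63 with an interval of -0.35 to 1.62 (limma adjusted p = 0.746). Neither reading excludes a difference of 1.6-fold for any of the 3 genes.

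G0 MB and G0 FB, cells of a muscle and a fibroblast-like line held in the same arrest, showed no difference in the 6 clones that passed the test. By the labelled dyes the log2 ratios were 0.58 and -0.9 for Tubb4b H3024C12, 0.13 and -0.56 for H3024D01, and 0.34 and -0.13 for H3024D02. For Cfl1 they were 0.11 and -0.01, for Anxa2 0.22 and -0.5, and for Tagln2 -0.21 and -0.51. Only Tagln2 lay on 1 side of 0 on both arrays, as did 28.4% of the 6211 clones tested below 0 and 31.6% above it. The 6 means lay between -0.36 and 0.1, with limma adjusted p = 0.9997 for each by the labelled dyes and 0.997 in title order. None of the 6 met the call rule, which 0 clones met in the higher direction (0%, 114 at an unadjusted p under 0.05) and 5 in the lower (0.0805%, 111 at an unadjusted p under 0.05) by the labelled dyes, while in title order 5 were called higher (0.0805%) and 0 lower (0%, 185 at an unadjusted p under 0.05). The narrowest 95% intervals were those of the title order, -0.98 to 0.88 for Cfl1, -0.85 to 1.12 for Anxa2 and -0.61 to 1.32 for Tagln2. The intensities of Cfl1 were 64074 and 82376 in G0 MB and 59039 and 82839 in G0 FB, well above the limit on both arrays. Of 5 fibroblast markers tested beside them, 2 were past 1.6-fold higher in G0 MB and 2 lower by the labelled dyes (median -0.52), where 9.51% of all 3333 genes tested were higher and 7.35% lower. The part of these markers in the ratios was not tested.

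The beta-tubulins measured beside Tubb4b also stood lower in G0 MB than in MB. Tubb2b had a mean log2 ratio of -2.17 ± 0.541 (standard error, limma adjusted p = 0.0956), Tubb6 -2.13 ± 0.653 (limma adjusted p = 0.132) and Tubb3, best known from neurons, -1.83 ± 0.474 (limma adjusted p = 0.101), and none of the 3 passed the test under either reading. Tubb5, a beta-tubulin of dividing cells, was read by 7 clones, of which 6 had means between -2.29 and -1.16 and H3124H12 had 0.54, so the clones under that symbol disagree. H3124H12 had no value on any array of MT over MB, G0 MB over MT or G0 MB over G0 FB, unlike the other 6. Of the 7 clones, H3139D02 met the call rule in title order (limma adjusted p = 0.0237) and not by the labelled dyes (limma adjusted p = 0.0612). In G0 MB over MT, Tubb2b had 3.06 ± 0.662 by the labelled dyes and -3.06 ± 0.632 in title order (limma adjusted p = 0.196 and 0.0893), on the same side as Tubb4b under each reading. The tubulin genes are alike in sequence, and how far one tubulin transcript binds the clones of another was not tested.

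**Figure D3:**
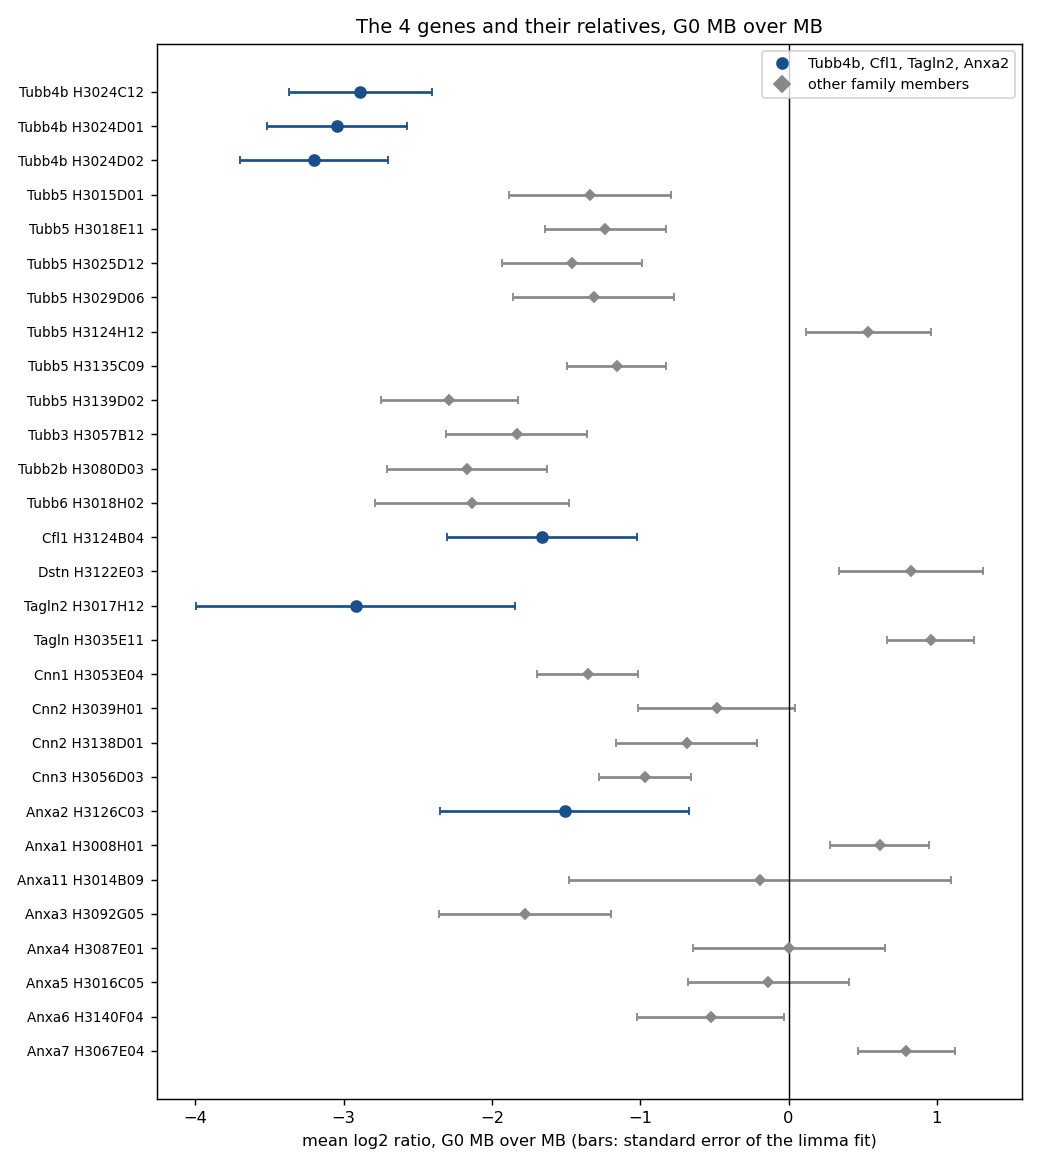
Mean log2 ratio of G0 MB over MB for the clones of Tubb4b, Cfl1, Tagln2 and Anxa2 (circles) and of their tested relatives (diamonds), with the standard error of the limma fit as bars. The beta-tubulins lie below 0 except 1 Tubb5 clone, while Dstn and Tagln, relatives of Cfl1 and Tagln2, lie above it.

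Dstn and Tagln, the relatives of Cfl1 and Tagln2 that were measured, had means above 0 in G0 MB over MB, and neither passed the test. Dstn, which encodes destrin, an actin-depolymerizing protein of the cofilin family, had a mean log2 ratio of 0.83 ± 0.485 in G0 MB over MB (standard error, limma adjusted p = 0.328), with Cfl1 at -1.66. Tagln, the transgelin of smooth muscle, had 0.96 ± 0.296 (limma adjusted p = 0.133), with Tagln2 at -2.92. The differences between the relatives were not tested. The calponins Cnn1, Cnn2 and Cnn3 had means of -1.35, -0.69 and -0.97 (limma adjusted p = 0.0958, 0.396 and 0.142), below 0 like Tagln2. In MT over MB in title order Dstn had -1.33 ± 0.384 (limma adjusted p = 0.184), on the side of Cfl1. Of the annexins, Anxa3 had -1.78 ± 0.58 (limma adjusted p = 0.144), the only 1 of the other 7 tested to lie as low as Anxa2. Anxa1, Anxa4 and Anxa7 had means of 0.61, 0.0 and 0.79, and Anxa5, Anxa6 and Anxa11 had -0.14, -0.52 and -0.19. Cfl2, Tagln3 and S100a10 were not tested here.

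Over lists of cytoskeletal genes without the 4 themselves, tubulins and actin-bundling genes stood below all genes in G0 MB over MB, and few members passed the test. All 5 tubulins tested had means past 1.6-fold lower, with a median log2 ratio of -1.83. Over all 3780 genes tested the median was -0.15, with 26.6% past 1.6-fold lower and 17.4% higher. In limma none of the 5 tubulins met the call rule under either reading, and all 5 were lower at an unadjusted p under 0.05. Of all 3780 genes, 473 were lower and 335 higher at that limit by the labelled dyes. The call rule was met by 16 of all genes higher and 2 lower by the labelled dyes, and by 60 and 49 in title order. The tubulins tested were Tubb2b, Tubb6, Tubb3, Tubb5 by its brightest clone, and the alpha-tubulin Tuba1a (-1.69). The list of calponin family and actin-bundling genes had 15 of 23 genes past 1.6-fold lower and 2 higher, with a median of -0.84. By the labelled dyes none of the 23 was called in limma (10 lower and 1 higher at an unadjusted p under 0.05), and in title order Pdlim1 (-2.43) and Tpm3 (-1.62) were called lower and Pdlim7 (1.36) higher (limma adjusted p = 0.0352, 0.0375 and 0.0381). Pdlim1 and Pdlim7 encode PDZ and LIM domain proteins of actin structures, and Tpm3 a tropomyosin that winds along the filament. The non-muscle myosin chains Myh10 and Myl9 had means of -1.66 ± 0.83 and -1.49 ± 0.516 (standard error, limma adjusted p = 0.267 and 0.157 by the labelled dyes). Myh10 ranged from -4.1 to -0.15 over the arrays, and Myh9, another non-muscle heavy chain, had a mean of -0.37 (limma adjusted p = 0.743).

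The other lists lay nearer to all genes. Of 16 tubulin folding and microtubule genes, 6 were past 1.6-fold lower and 1 higher (median -0.61), with Kif5b, a kinesin motor, highest (1.77). The 7 measured subunits of the chaperonin that folds tubulin and actin had means of -2.37 (Cct3), -2.13 (Cct7), -1.5 (Cct8), -1.32 (Cct4), -0.72 (Cct5), -0.67 (Tcp1) and -0.17 (Cct2). Of the 16 genes only Cct3 was called, in title order (limma adjusted p = 0.0277) but not by the labelled dyes (limma adjusted p = 0.078). Of 34 actin turnover genes, 10 were past 1.6-fold lower and 7 higher (median -0.38). These are 29.4% and 20.6%, near the 26.6% and 17.4% of all genes. In limma none of the 34 was called under either reading (4 lower and 2 higher at an unadjusted p under 0.05 by the labelled dyes). Of all 3780 genes, 473 were lower and 335 higher at that limit. The extremes were Actr3 (-1.42), a subunit of the branching Arp2/3 complex, and Capza1 (1.66), a capping protein, with the cofilin phosphatase Ssh2 (-1.23) and the monomer-binding thymosin Tmsb10 (-1.19) next to Actr3. Of 9 annexins and S100 partners, 1 was past 1.6-fold lower and 1 higher, with a median of -0.14, close to that of all genes.

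In MT over MB in title order the medians of tubulins, tubulin folding, actin turnover, actin-bundling and annexin genes were -0.55, -0.25, -0.33, -0.71 and -0.75, against -0.01 over all 2936 genes tested. Pdlim7 at 2.22 was the only gene of the lists called (limma adjusted p = 0.0345), where 5 of all 2936 genes were called higher and 9 lower. By the labelled dyes the same medians were -0.24, -0.0, -0.0, -0.19 and 0.03, against 0.11 over all genes. In G0 MB over MT the tubulins had a median of 0.81 by the labelled dyes and -0.81 in title order, beside -0.09 and 0.09 over all genes. In G0 MB over G0 FB the calponin and actin-bundling list had a median of -0.53 by the labelled dyes and 0.53 in title order, beside -0.06 and 0.06 over all genes, and no gene of the lists was called in either of these comparisons. Of a separate list of 7 genes, serum response factor with cofactors and targets, only Fhl2 was tested, with -1.57 in G0 MB over MB (limma adjusted p = 0.457), while known targets such as Actb, Vcl, Tagln and Cnn1 were counted in the other lists.

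**Figure D4:**
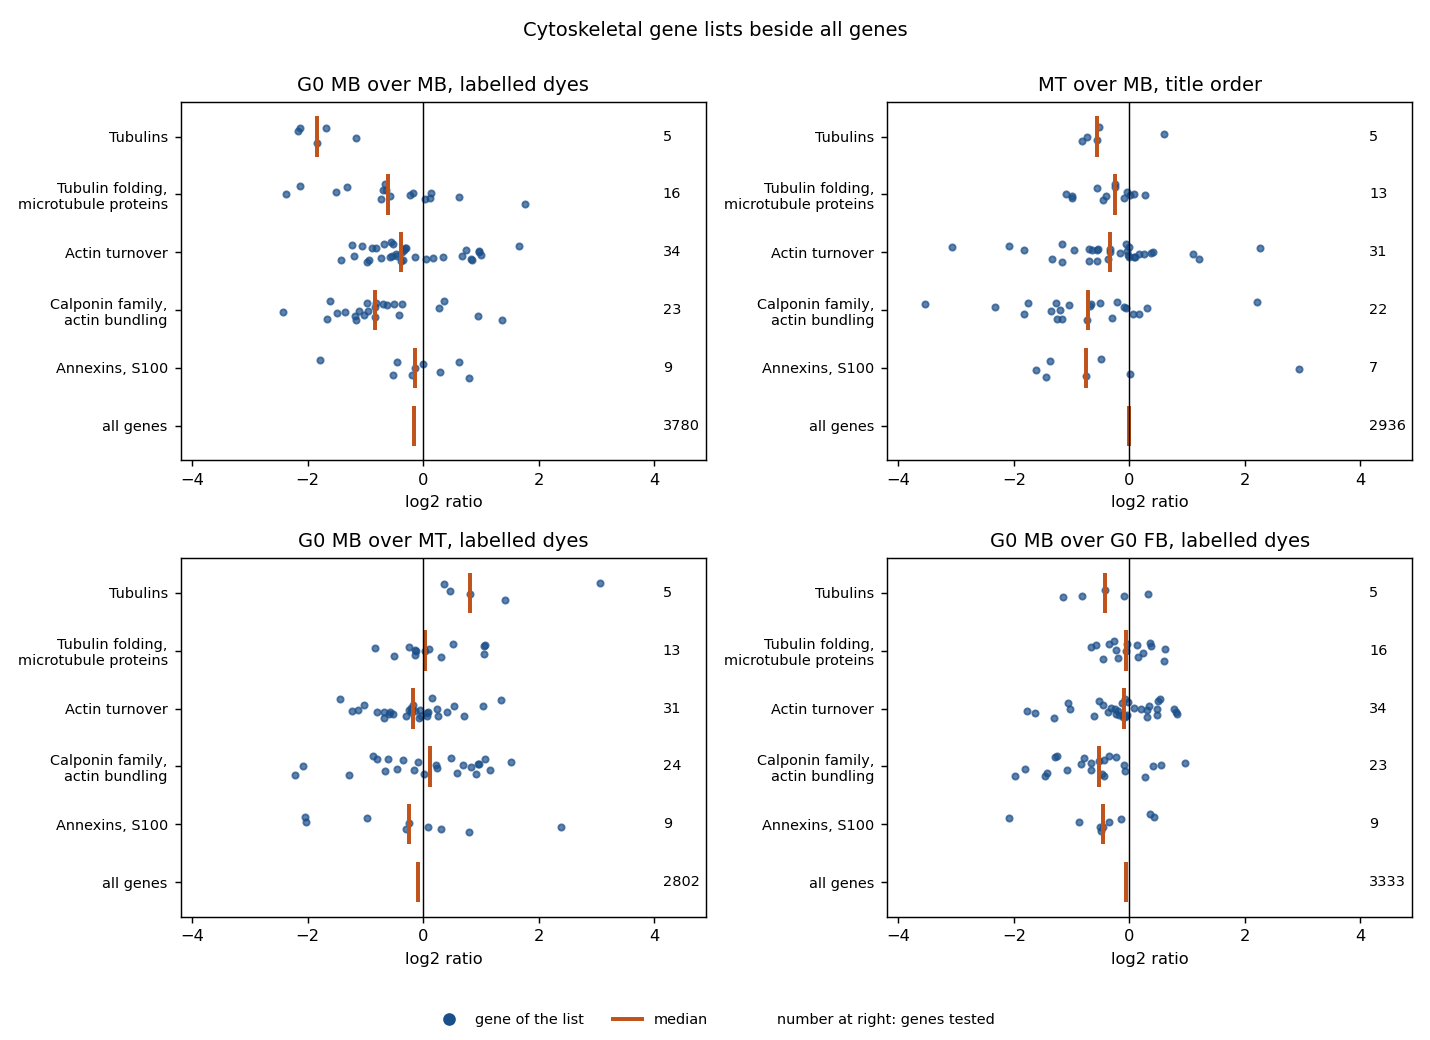
Log2 ratio of each tested gene of the 5 cytoskeletal lists (points) with the list's median (bar) beside the median over all genes tested, for the 4 comparisons, with the number of genes tested at the right. MT over MB is drawn in title order and the others by the labelled dyes, so the panels mix the readings. The medians of G0 MB over MB are the same under both, while title order turns the sign where G0 MB is set against MT or G0 FB. The tubulin median in G0 MB over MT is 0.81 as drawn and -0.81 in title order, so that panel does not settle which state had more. As drawn, that comparison also has the muscle markers Mylpf and Tpm2 higher in G0 MB. In G0 MB over MB the tubulins have a median of -1.83 and the actin-bundling genes one of -0.84, beside -0.15 for all genes.

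Across the arrays the ratios of Cfl1, Tagln2 and Anxa2 were more alike to each other than to those of Tubb4b. The likeness was measured as the cosine between the log2 ratios of 2 clones over the arrays that measured both, which does not change when the sign of a whole array is turned, and it is a description over arrays that share RNA states. Of the 9 arrays, 5 are those of the comparisons that chose the genes and hold most of their large ratios, so a likeness above that of all genes was in part built in by the choice. It was 0.941 between Cfl1 and Anxa2 over 9 arrays, and 0.944 between Tagln2 and each of them over 8. Between Tubb4b H3024D02 and Cfl1, Tagln2 and Anxa2 it was 0.69, 0.69 and 0.501, while the 3 Tubb4b clones had 0.951 to 0.988 with each other. Among the 1895 genes measured on all 9 arrays, Anxa2 was the third most like Cfl1 after Hmgn1 (0.965) and Ptma (0.941), and Gnai2 had a cosine of 0.943 with Anxa2. The genes most like Tagln2 were Capn2 (0.977), Hmgn1 (0.965) and Cfl1. Those most like Tubb4b were a clone listed as Rnu64 (now Snora64) and described as similar to ribosomal protein S2 (0.982), Mrpl12 (0.977) and Rpl4 (0.966), and Cfl1 came 265th and Anxa2 524th. The median cosine over all genes was 0.09 for Tubb4b, 0.05 for Cfl1, 0.13 for Tagln2 and 0.03 for Anxa2.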

How the data were processed

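RNA of paired cell states was compared on 9 cDNA arrays, each read in the Cy3 and the Cy5 channel. The treatment label of each array speaks of replating, whereas the titles name the states used here. The deposited Cy3 and Cy5 intensities came from ArrayVision, and the authors had already subtracted background and applied LOWESS normalization, so neither step was repeated. The deposited log2 values are the authors' log2 ratios of these intensities, and the authors' value table holds the same ratios with 0 for empty spots, its columns for the 2 arrays of MT over MB holding each other's values. Spots at or under the detection limit in both channels and control spots were left out, and duplicate spots averaged. Limma 3.58.1 (R 4.3.3) fitted the 4 comparisons jointly over the 9 arrays. Clones with values on 2 or more arrays of a comparison, and 2 or more residual degrees of freedom, were tested, with Benjamini-Hochberg adjustment over the clones of each comparison, and called at an adjusted p under 0.04 past 1.6-fold, after the limits in the study's methods. SAM was not run. Members and lists were chosen with earlier results of these data known. Named genes are the 4 genes, their close relatives, list genes called in either reading, the 4 of each list furthest from 0 in G0 MB over MB, and the 3 most alike in cosine, each by its brightest clone, and 1 of the genes most alike is not reported here. The arrays with the same replicate number deviated from their group means with r between -0.369 and 0.0764, and the numbers were not taken to pair arrays. These values use the labelled directions and dyes, so they cannot exclude a pairing. The fit was tested on simulated data. Tables used Python 3.11.15, pandas 2.3.3 and numpy 2.4.6. The number of arrays limits the precision.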

Additional observations from a re-analysis of the deposited data

How the results depend on the processing

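Of 127 values of the 6 clones in G0 MB over MB under 22 alternative settings, 127 lay below 0, and no clone of the 6 was called in G0 MB over MT or G0 MB over G0 FB under any of them (lowest limma adjusted p 0.229 and 0.747). Their means in G0 MB over MB ranged from -3.24 to -2.01 (H3024C12), -3.33 to -2.16 (H3024D01), -3.89 to -1.82 (H3024D02), -1.98 to -1.03 (Cfl1), -2.92 to -1.76 (Tagln2) and -1.77 to -0.979 (Anxa2). The cause of the changes below was not tested, apart from signs that a setting turns by its construction, and counts are clones called higher and lower in limma. The alternative background correction was not run, since the deposited intensities were already background-subtracted.

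In title order and with the authors' value table, G0 MB over MT turned to -1.52, -1.71 and -1.36 (H3024C12, H3024D01, H3024D02), 0.307 (Cfl1), 0.0241 (Tagln2) and 0.633 (Anxa2), and G0 MB over G0 FB to 0.159, 0.217, -0.102, -0.0507, 0.358 and 0.136 in the same order. Title order gave 104 and 100 calls in G0 MB over MB (labelled dyes 19 and 8), 16 and 17 in MT over MB (0 and 0), 13 and 6 for G0 MB over MT (0 and 2), then 5 and 0 for G0 MB over G0 FB (0 and 5). The value table gave 11 and 9 in MT over MB, 0 lower for G0 MB over MT, then 3 and 0 for G0 MB over G0 FB. Both moved the list medians to -0.555 (tubulins), -0.71 (actin bundling) and -0.754 (annexins) in MT over MB, to -0.808 (tubulins) in G0 MB over MT, and to 0.416, 0.534 and 0.462 in G0 MB over G0 FB. Turning replicate 2 of MT over MB in place of replicate 1 gave 0.899, 0.903 and 0.207 for the Tubb4b clones, medians of 0.555, 0.71 and 0.754, and 104 and 100, 17 and 16, and 6 and 13 calls in the first 3 comparisons.

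With arrays of 1 layout, G0 MB over MB rests on replicate 3: Cfl1 had -1.03, Anxa2 -0.979 and the tubulins -1.22, with 0 and 0 calls there and 0 lower in G0 MB over MT and in G0 MB over G0 FB. With both channels above the limit, calls were 155 and 142 for G0 MB over MB, then 8 and 8 for G0 MB over MT, then 2 lower for G0 MB over G0 FB. A dye term left 3 lower for G0 MB over MB, then 0 lower for G0 MB over MT, with annexins at -0.122 in MT over MB. Repeated loess left 4 lower in G0 MB over MB, and median centring gave 39 higher there, 0 lower in G0 MB over MT and -2.75 for Tagln2. Tagln2 in G0 MB over MT turned to 0.019, 0.093 and 0.123 with loess, centring and scaled arrays. Scaled arrays gave -2.01, -2.16, -1.76 and -0.998 for H3024C12, H3024D01, Tagln2 and Anxa2 and -1.16 for the tubulins in G0 MB over MB, with 0 and 0 calls there, 0 lower in G0 MB over MT and 3 lower in G0 MB over G0 FB. Without a filter on dim spots, calls were 1 and 2 in G0 MB over MB, 0 lower in G0 MB over MT and 3 lower in G0 MB over G0 FB. A separate fit per comparison gave 48 and 38 in G0 MB over MB and 0 lower in the last 2 comparisons, and single spots gave 102 and 92 for G0 MB over MB, then 2 and 12 for G0 MB over MT. With the replicate block, taken as random, calls in G0 MB over MB were 20 and 9, and it changed no call of the 6 clones in the tested comparisons.

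Leaving out each array in turn moved calls in G0 MB over MB between 0 and 329 higher and 0 and 238 lower: without replicate 3 they were 329 and 238, and without replicate 1 or replicate 2 0 and 0. The ranges were 0 to 22 and 0 to 15 in MT over MB, 0 to 44 and 0 to 12 for G0 MB over MT, then 0 to 3 and 1 to 6 for G0 MB over G0 FB. Single clones ranged from -0.514 to 0.466 (Tagln2) and -1.29 to 0.0265 (Anxa2) in G0 MB over MT, and in G0 MB over G0 FB from -0.899 to 0.581, -0.564 to 0.13 and -0.131 to 0.335 (H3024C12, H3024D01, H3024D02), -0.00809 to 0.11 (Cfl1) and -0.496 to 0.225 (Anxa2). The tubulin median ranged from -2.34 to -1.7 in G0 MB over MB and -0.767 to 0.284 in MT over MB, where actin bundling ranged from -1.09 to 0.348 and annexins from -0.633 to 0.874. An array left out of a pair leaves 1 array, assumed to vary like the others. Signal over background limits the decreases of 5 of the 53 clone values, where G0 MB lay under its limit.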
